A study of Mus musculus with 4 samples.

Results

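The granins are a family of acidic proteins packed with hormones in the secretory granules of endocrine cells and neurons, and 5 of their genes are described here: Chga, Chgb, Scg2, Scg3 and Vgf. They were found by gene symbol in a table of 22564 genes, each symbol matched exactly 1 gene, and all 5 passed the filter on low counts. Granins bind calcium, aggregate in the acidic trans-Golgi and help to form the dense core of a granule. Several are cut by prohormone convertases into peptides that are released with the hormone. In pancreatic islets they are made by the hormone-secreting cells, where they accompany insulin, glucagon and the other hormones.

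Transcripts were measured by RNA sequencing of total RNA, freed of ribosomal RNA, from islets of newborn 129sv mice (postnatal day 0). There were 2 Mettl3/14nKO libraries and 2 wild-type libraries. Mettl3 and Mettl14 form the enzyme that writes N6-methyladenosine (m6A) on RNA. The labels name the knockout of both genes but give no Cre driver, no targeted exon and no word on whether a library is 1 animal or a pool, so the p-values given here reflect no more than the variation among these 4 libraries, part or all of which may be technical.

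Fragments assigned to genes numbered 1216498 and 744016 for Mettl3/14nKO, against 1255526 and 1617429 for wild-type. The targeted gene Mettl3 had 6.95 and 5.86 FPKM in Mettl3/14nKO, against 8.40 and 14.5 FPKM in wild-type islets, and Mettl14 had 3.75 and 2.66 FPKM in Mettl3/14nKO, against 5.06 and 7.55 FPKM in wild-type islets. The Mettl3 values rest on 30 and 9 fragments in Mettl3/14nKO, against 20 and 47 in wild-type libraries. Those of Mettl14 rest on 24 and 12 fragments in Mettl3/14nKO, against 32 and 54 in wild-type libraries. Neither gene passed with edgeR (adjusted p = 0.849 and 0.308), so the targeted genes do not check the labels at this depth. The hormone genes that define islet cells took 4.90% and 6.16% of all fragments in Mettl3/14nKO, against 8.35% and 8.69% in wild-type libraries, so the markers that define islets are abundant in all 4. FPKM, the deposited unit, divides fragments by transcript length and by library depth, which allows levels of different genes to be compared. CPM scales each library's fragments in genes to the same total. The scales differ by library, since a typical gene had 0.175 and 0.147 FPKM per CPM in Mettl3/14nKO, against 0.182 and 0.197 in wild-type libraries. Every granin therefore sits lower in Mettl3/14nKO in FPKM than it does in CPM, and the log2 fold change over all genes had a median of -0.21 with limma on FPKM and 0.00 with edgeR.

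The sequence just upstream of the start sites is shown first, because it is a feature the 5 genes were not chosen by and because granin genes are textbook targets of cyclic AMP signalling, which acts through the cAMP response element (CRE). RefSeq start-site windows of build GRCm38.p6 were matched for Chga, Chgb, Scg2 and Scg3. The 120 bases before each start are printed 5′ to 3′ on the gene's strand, and capitals mark the CRE core TGACGTCA or, where that is absent, its shorter form TGACG.
Chga, chr12:102554821-102554940, plus strand: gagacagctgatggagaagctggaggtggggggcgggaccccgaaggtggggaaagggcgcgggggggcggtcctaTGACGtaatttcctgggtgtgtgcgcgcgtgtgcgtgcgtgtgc
Chgb, chr2:132781522-132781641, plus strand: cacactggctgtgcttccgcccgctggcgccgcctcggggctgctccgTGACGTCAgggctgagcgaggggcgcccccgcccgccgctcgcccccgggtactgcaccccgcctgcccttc
Scg2, chr1:79440027-79440146, minus strand: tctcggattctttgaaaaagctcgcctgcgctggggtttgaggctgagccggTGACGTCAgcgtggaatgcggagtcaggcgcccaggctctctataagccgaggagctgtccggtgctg
Scg3, chr9:75684057-75684176, minus strand: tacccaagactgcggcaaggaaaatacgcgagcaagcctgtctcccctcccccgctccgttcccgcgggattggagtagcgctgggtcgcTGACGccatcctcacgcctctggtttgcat

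The full 8-base core TGACGTCA lay at positions -72 to -65 of Chgb and -68 to -61 of Scg2, counting -1 as the last base before the start. It was found in 1.79% of all 32851 RefSeq windows of 300 bases (250 before and 50 after the start). Chga had TGACG at -44 to -40 and Scg3 at -30 to -26, a 5-base string that 20.8% of all windows hold on either strand and that is also part of the full core. Chga also held GGGCGG, the usual core of an Sp1 site, at -90 to -85 and -55 to -50, and Chgb held it on the opposite strand at -104 to -99 and -44 to -39 (35.7% of all windows). In the other lists, counting genes with a window, TGACGTCA was present in Pcsk1 of 5 processing enzymes, in Slc18a2 of 14 granule membrane genes and in Sst of 7 hormone genes. It was in 0 of 13 genes of granule biogenesis and sorting, 0 of 3 further granin-family genes and 0 of 11 transcription regulators with a window. These matches describe letters and are not measured binding sites. In GENCODE M21 the Chgb gene begins further upstream, at 132781278, so all its printed bases lie inside that gene. Scg2, on the minus strand, begins there at 79440120, so its full core also lies inside the annotated gene. Chgb and Scg2, the pair with the full core, had edgeR log2 fold changes (Mettl3/14nKO over wild-type) of -0.36 and 0.03, and neither passed.

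Chga was the most abundant granin transcript in every library and Vgf the least. By mean FPKM the order in wild-type islets was Chga (1688 ± 13.5), Scg2 (605 ± 10.3), Chgb (590 ± 10.1), Scg3 (204 ± 15.4) and Vgf (18.3 ± 0.378, SD, n = 2 each). Scg2 and Chgb differed by little more than their spread there. In Mettl3/14nKO islets the order was the same but Scg2 (510 ± 33.5) stood clear of Chgb (384 ± 11.7), between Chga (1087 ± 32.6) and Scg3 (158 ± 9.38), with Vgf at 9.24 ± 1.87 FPKM. Ranked among all 22481 symbols by FPKM, Chga was 14th and 12th in Mettl3/14nKO and 10th in both wild-type libraries, while Vgf was 4334th and 4753rd in Mettl3/14nKO, against 2354th and 2668th in wild-type libraries.

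Between genotypes, Chga, Chgb and Vgf had both Mettl3/14nKO values below both wild-type values on either scale, Scg2 and Scg3 overlapped in CPM, and none of the 5 passed the test across all genes. With edgeR's quasi-likelihood test, 0 of 5 granins had an adjusted p under 0.05, against 3.71% of 10956 genes tested (1.61% lower). Unadjusted p was under 0.05 for 3 of the 5, all of them lower, against 15.9% of all genes (7.79% lower). DESeq2 also called 0 of 5, with a background of 1.48% (0.529% lower), and limma 0 of 5, with a background of 0%. Without a filter on low counts edgeR called 3 of 5 lower, against 5.33% of all genes (2.41% lower), and without Mettl3/14nKO replicate 2 it called 2 of 5 lower, against 5.82% (2.46% lower). With at least 10 fragments required in every library it called 1 of 5 lower, against 4.15% of 8990 genes (1.77% lower). In FPKM all 5 lay wholly below wild-type, as did 36.7% of all genes tested. In CPM 3 of 5 did, against 22.6% of all genes, while 45.2% of all genes had groups that did not overlap in either direction.

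**Figure D1:**
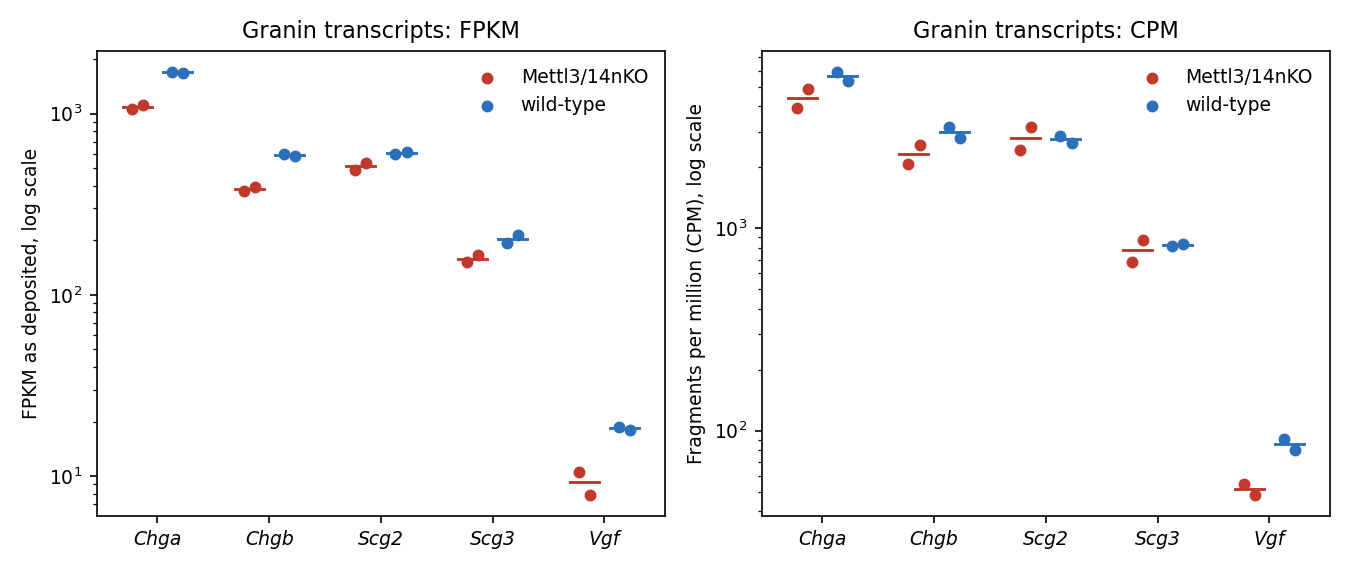
Level of each granin transcript in every library, in deposited FPKM (left panel) and in CPM (right panel), both on log axes, with Mettl3/14nKO in red and wild-type in blue; points are libraries and bars are group means. Chga, Chgb and Vgf separate on both scales, whereas Scg2 and Scg3 separate in FPKM and overlap in CPM.

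Chga encodes chromogranin A, the founding granin and the precursor of pancreastatin and other peptides (ENSMUSG00000021194, mm10 chr12:102554969-102565027, plus strand). Mettl3/14nKO islets had 1064 and 1110 FPKM of it, against 1697 and 1678 FPKM for wild-type. On the CPM scale the Mettl3/14nKO values were 3906 and 4851, against wild-type values of 5915 and 5325, resting on 4752 and 3609 fragments for Mettl3/14nKO, against 7427 and 8613 for wild-type. The groups did not overlap, but within each group the libraries were further apart than counting allows. The 95% Poisson intervals were 3796 to 4019 and 4694 to 5012 CPM for Mettl3/14nKO, against 5782 to 6052 and 5213 to 5439 CPM for wild-type. The edgeR log2 fold change was -0.36 (SE 0.15, adjusted p = 0.230). Without Mettl3/14nKO replicate 2 it was -0.54 and passed (adjusted p = 0.010), and keeping genes of any count it was -0.38 and passed too (adjusted p = 0.00912). Without Mettl3/14nKO replicate 1 it was -0.20.

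Chgb encodes chromogranin B, which binds calcium and is sorted to granules through a loop near its amino end (ENSMUSG00000027350, chr2:132781278-132795079, plus strand). Its level was 375 and 391.8 FPKM for Mettl3/14nKO, against 597 and 583 FPKM for wild-type, or 2081 and 2586 CPM for Mettl3/14nKO, against 3151 and 2804 CPM for wild-type. Both Mettl3/14nKO libraries were below both wild-type libraries. The edgeR log2 fold change was -0.36 (SE 0.14, adjusted p = 0.228). Leaving out Mettl3/14nKO replicate 2 made it pass (-0.54, adjusted p = 0.0133), as did a fit with genes of any count kept (-0.37, adjusted p = 0.0199), and it stood at -0.19 when Mettl3/14nKO replicate 1 was left out. The ratio of Chga to Chgb hardly varied, at 2.84 and 2.83 in Mettl3/14nKO, against 2.84 and 2.88 in wild-type libraries.

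Vgf encodes a granin-like neuropeptide precursor that nerve growth factor and neural activity induce in neurons (ENSMUSG00000037428, chr5:137030295-137033351, plus strand). This low transcript had 10.6 and 7.91 FPKM in Mettl3/14nKO, against 18.6 and 18.05 FPKM in wild-type islets. Behind these values were 66 and 36 fragments for Mettl3/14nKO, against 114 and 130 for wild-type. In CPM it had 54.3 (95% Poisson interval 42.0 to 69.0) and 48.4 (33.9 to 67.0) in Mettl3/14nKO, against 90.8 (74.9 to 109) and 80.4 (67.2 to 95.4) in wild-type libraries. The upper bounds in Mettl3/14nKO lie near the lower bounds in wild-type libraries, and the intervals cover counting error only. The edgeR log2 fold change of -0.73 (SE 0.20, adjusted p = 0.0638) was the most negative of the 5 and did not pass. Vgf had -0.73 with DESeq2 (SE 0.34, adjusted p = 0.602) and -0.93 with limma on log2(FPKM + 1) (adjusted p = 0.261). Its edgeR adjusted p was 0.0216 with genes of any count kept, 0.0498 with at least 10 fragments required in every library, and 0.103 to 0.292 with 1 library left out. Neurons also express Vgf, and the sum of 12 neuron and glia markers was 253 and 245 CPM for Mettl3/14nKO, against 388 and 375 CPM for wild-type. Of the 7 tested, 2 fell with edgeR (Stmn2 and Prph, background 1.61% lower), while S100b and Gfap had no fragment in at least 1 library. Their part in the Vgf result was not tested.

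Scg2 encodes secretogranin II, the precursor of the peptide secretoneurin (ENSMUSG00000050711, chr1:79434669-79440090, minus strand). Mettl3/14nKO islets held 487 and 534 FPKM of it, against 598 and 613 FPKM for wild-type. Its CPM was 2428 and 3171 for Mettl3/14nKO, against 2837 and 2649 for wild-type, so that the Mettl3/14nKO libraries enclosed the wild-type ones. The edgeR log2 fold change was 0.03 (SE 0.15, adjusted p = 0.969), against -0.25 with limma on FPKM (adjusted p = 0.627). Its sign also turned when Mettl3/14nKO replicate 2 was left out (-0.19), and when wild-type replicate 2 was (-0.03).

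Scg3 encodes secretogranin III, which binds cholesterol-rich granule membrane and holds chromogranin A there (ENSMUSG00000032181, chr9:75643264-75683996, minus strand). Its values were 152 and 165 FPKM for Mettl3/14nKO, against 193 and 215 FPKM for wild-type, or 678 and 878 CPM for Mettl3/14nKO, against 820 and 832 CPM for wild-type. The groups overlapped in CPM. The edgeR log2 fold change was -0.10 (SE 0.14, adjusted p = 0.825). It turned to 0.10 when Mettl3/14nKO replicate 1 was left out. Of the 5 loci, Scg3 alone overlaps another gene annotated in GENCODE M21, Gm37871 on the opposite strand. The kit keeps strand, but how the counting used it is not known here, so reads of the 2 genes may not be told apart.

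**Figure D2:**
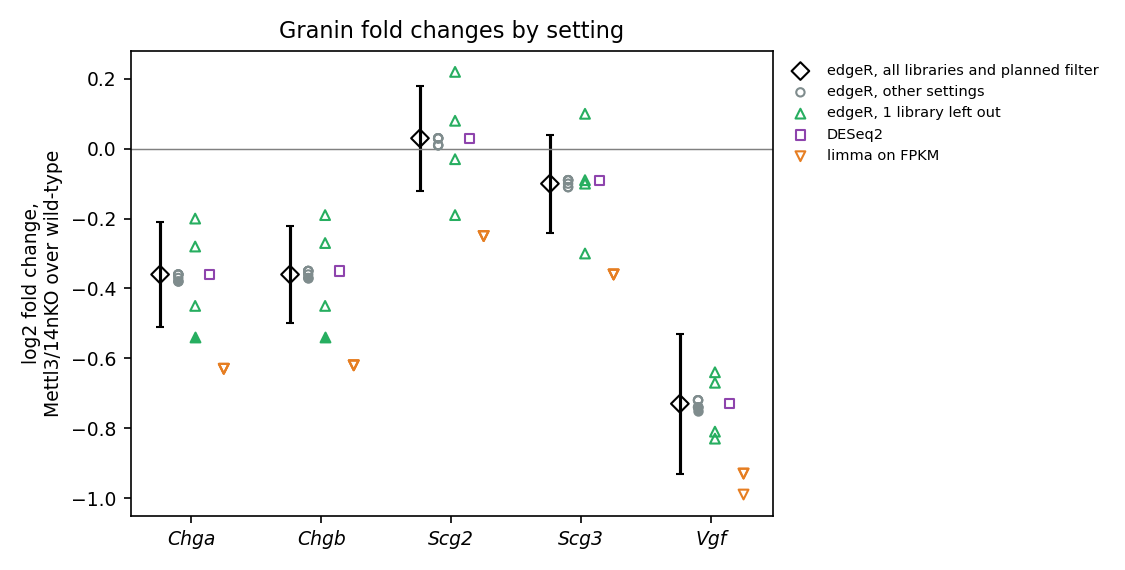
Log2 fold change (Mettl3/14nKO over wild-type) of each granin under every setting fitted, with filled symbols where the adjusted p is under 0.05 and error bars of 1 SE on the edgeR fit of all libraries. Chga, Chgb and Vgf are below 0 in every setting drawn, and Scg2 lies on both sides of it.

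Because a ratio within a library does not depend on how libraries are scaled, the members were also set against Scg2. Chgb over Scg2, in FPKM, was 0.771 and 0.734 in Mettl3/14nKO, against 0.999 and 0.952 in wild-type libraries. Chga over Scg2 was 2.19 and 2.08 in Mettl3/14nKO, against 2.84 and 2.74 in wild-type libraries. The group means differed by -0.37 (Chgb) and -0.39 (Chga) on the log2 scale. Neither pair of groups overlapped, but this held for every ratio formed, also for Chga over Chgb with a difference of -0.01. The share of other gene pairs whose ratios do not overlap was not computed. Scg3 over Scg2 was 0.312 and 0.309 in Mettl3/14nKO, against 0.323 and 0.350 in wild-type libraries, a difference of -0.12. Vgf over Scg2 was 0.0217 and 0.0148 in Mettl3/14nKO, against 0.0311 and 0.0295 in wild-type libraries, a difference of -0.73. With 2 libraries against 2, an exact two-sided permutation test cannot give a p below 0.333, so these ratios are given without a test. These pairs were chosen after the values were seen.

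Summed as a pool, the 5 genes reached 2088 and 2209 FPKM in Mettl3/14nKO, against 3104 and 3106 FPKM in wild-type islets. As a share of all fragments in genes the pool was 0.915% and 1.15% in Mettl3/14nKO, against 1.28% and 1.17% in wild-type libraries, where the second Mettl3/14nKO library comes close to the second wild-type one. Chga made up 50.96% and 50.3% of the granin FPKM in Mettl3/14nKO, against 54.7% and 54.0% in wild-type islets. Scg2 made up 23.3% and 24.2% in Mettl3/14nKO, against 19.3% and 19.7% in wild-type islets. Insulin transcripts, cargo of the same granules in beta cells, were lower by more than the granin pool was. The granin pool equalled 5.20% and 5.28% of the summed Ins1 and Ins2 FPKM in Mettl3/14nKO, against 3.52% and 3.09% in wild-type islets. Against all 8 hormone genes it equalled 4.13% and 4.15% in Mettl3/14nKO, where wild-type islets had 3.03% and 2.60%. With edgeR 5 of these 8 genes fell and 0 rose (background 1.61% lower). They were Ins1 (log2 fold change -0.64, adjusted p = 0.0412), Ins2 (-0.94, 0.00669), Iapp (-0.95, 0.00740), Ppy (-2.24, 0.00287) and Pyy (-1.28, 0.00325). Gcg (0.41, 0.248), Sst (0.04, 0.946) and Ghrl (-0.49, 0.200) did not pass. DESeq2 called 2 of the 8 and limma 0. Sums over the members carry no test.

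**Figure D3:**
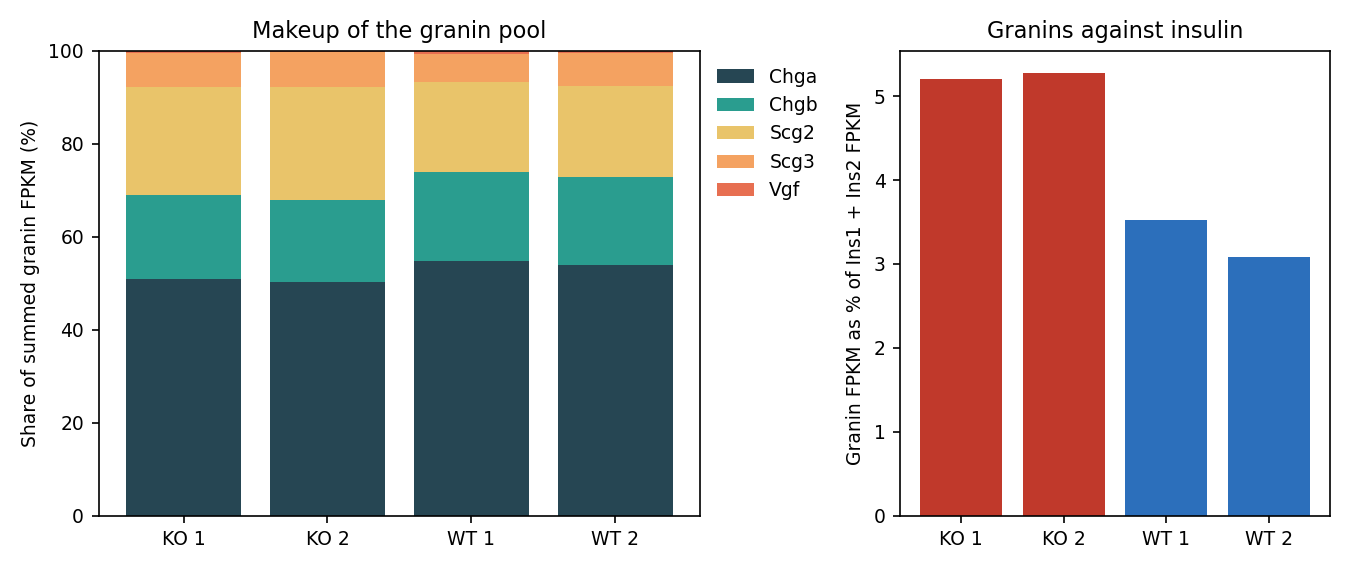
Left panel, share of each granin in the summed granin FPKM of each library (KO, Mettl3/14nKO; WT, wild-type); right panel, granin FPKM as a percentage of Ins1 plus Ins2 FPKM. Scg2 takes a larger share of the pool in both Mettl3/14nKO libraries, and the bars against insulin stand at 5.20% and 5.28% in Mettl3/14nKO, against 3.52% and 3.09% in wild-type islets.

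All 5 transcripts were shorter than the median mRNA. From the principal GENCODE M21 transcript of each gene (GRCm38), mRNA lengths were 1883 bases for Chga, 2740 for Chgb, 2515 for Scg2, 2384 for Scg3 and 2834 for Vgf, all below the median of 3299 over 10443 tested genes. Scg2 and Vgf carry their whole coding sequence of 1851 bases in 1 exon, and their longest exons make up 93.4% and 84.2% of the mRNA (median of all genes 50.7%). Chgb has 64.5% of its mRNA in a single exon of 1766 bases. Chga, with 8 exons, and Scg3, with 12, have longest exons of 476 and 756 bases. GGACT, a frequent form of the m6A consensus read on the mRNA strand, occurred once in Chga, Chgb and Vgf, 2 times in Scg3 and not at all in Scg2. The median of all genes was 3, and 93.2% of their mRNAs hold at least 1. The 5 densities of 0 to 0.839 per kilobase were below the median of 1.04. No methylation was measured here, and the count of these letters says nothing of where m6A lies.

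None of 3 further genes of the granin family passed in either direction. Pcsk1n, which encodes the convertase inhibitor proSAAS, had 205 and 175 FPKM in Mettl3/14nKO, against 183 and 204 FPKM in wild-type islets (edgeR log2 fold change 0.24, adjusted p = 0.354). Scg5, whose product 7B2 is the chaperone of convertase PC2, had 98.5 and 109 FPKM in Mettl3/14nKO, against 119 and 137 FPKM in wild-type islets (-0.03, adjusted p = 0.969). Gnas, whose locus also encodes the granin-like NESP55 beside the G protein alpha subunit, stood at 0.35 on the edgeR log2 scale (adjusted p = 0.197), and gene-level values do not separate its products.

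Enzymes that cut and trim granins and prohormones included the only called genes among the granule lists. Of 6 tested processing enzymes 2 fell and 0 rose with edgeR (background 1.61% lower), with a median log2 fold change of -0.36 against 0.00 for all genes tested. Cpe encodes carboxypeptidase E, which trims basic residues after cleavage. Its level was 262 and 265 FPKM for Mettl3/14nKO, against 437 and 510 FPKM for wild-type, and it fell by 0.58 on the log2 scale (SE 0.13, adjusted p = 0.0305). Pcsk1, the convertase that cuts proinsulin and granins, had 30.7 and 43.7 FPKM in Mettl3/14nKO, against 71.2 and 88.4 FPKM in wild-type islets, and also fell (-0.81, SE 0.20, adjusted p = 0.0371). DESeq2 called Cpe (adjusted p = 0.0142) and not Pcsk1 (0.0646), and limma called neither (0.222 for each). With edgeR, leaving out Mettl3/14nKO replicate 1 ended both calls (Cpe -0.43, adjusted p = 0.117; Pcsk1 -0.45, adjusted p = 0.205), as did leaving out wild-type replicate 2 (Cpe 0.258, Pcsk1 0.376). The amidating enzyme gene Pam (-0.34, adjusted p = 0.181) and the carboxypeptidase gene Cpd (-0.39, 0.211) did not pass, and Pcsk2, the other islet convertase, stood at 0.01 (0.981).

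Of 19 tested genes of the granule membrane and lumen 0 passed (median log2 fold change -0.12). Those with the smallest edgeR p were Sytl4, the Rab27 effector granuphilin (-0.46, adjusted p = 0.0669), the proton pump accessory gene Atp6ap2 (-0.60, 0.138), the calcium sensor Syt7 (-0.33, 0.170) and the granule priming factor Cadps (-0.33, 0.242). Of 14 tested genes of granule biogenesis and sorting 0 passed (median 0.00), with Rab2a at -0.33 (0.254), Vps52 at 0.55 (0.343), Bace2 at -0.27 (0.418) and Sort1 at 0.17 (0.591). Of 17 tested transcription regulators of neuroendocrine and CRE-bearing genes 0 passed (median -0.01). Neurod1, an activator of endocrine genes, had 38.3 and 40.5 FPKM in Mettl3/14nKO, against 60.9 and 61.6 FPKM in wild-type islets (-0.38, adjusted p = 0.199). The histone methyltransferase gene Ehmt2 stood at 0.30 (0.307), Myt1 at -0.27 (0.367) and the demethylase gene Kdm1a at -0.25 (0.485). Rest, the repressor that keeps neuroendocrine genes off in other cells, was low at 4.48 and 2.43 FPKM in Mettl3/14nKO, against 3.31 and 3.63 FPKM in wild-type islets (0.25, adjusted p = 0.715), and Creb1, which binds the CRE, stood at -0.17 (0.681), both named after their values were seen. All adjusted p in this paragraph are edgeR's.

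**Figure D4:**
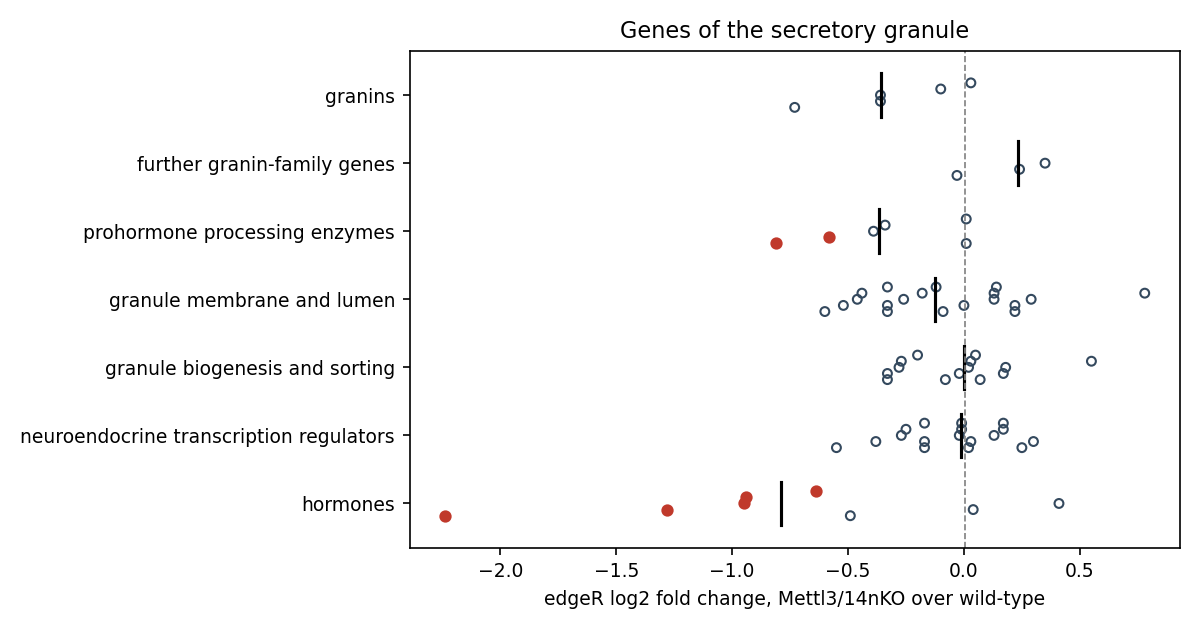
edgeR log2 fold change (Mettl3/14nKO over wild-type) of each tested gene in the granin list and 6 related lists; open circles did not pass, filled red circles had an adjusted p under 0.05, black bars are list medians and the dashed line is the median of all genes tested. Outside the hormones the filled circles are Cpe and Pcsk1.

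Among 2016 other genes with a mean of at least 20 FPKM, the pattern over the 4 libraries closest to Chga was that of Neurod1. The root mean square difference between log2 FPKM values centred on each gene's mean was 0.014 (median of the 2016 genes 0.302). Sumo3 (0.026) and Ank (0.036) came next. Neurod1 was also closest to Chgb (0.021), followed by Eif3g and Tmem57 (0.033 each). Tgoln1 (0.021), Cacna2d1 (0.025) and Zc3h14 (0.028) were closest to Scg3, and Rcc2 (0.036), Pdcd6ip (0.040) and Pum2 (0.041) to Scg2. Vgf was closest to Fam183b (0.016), Prps1 (0.056) and Sepw1 (0.064). For the granin sum the closest were Eif5 (0.018), Copb1 and Eif4g3 (0.035 each), and Zbed6 and Ngfrap1 (0.038 each). Medians over the 2016 genes were 0.299 for Chgb, 0.237 for Scg2, 0.243 for Scg3, 0.431 for Vgf and 0.272 for the sum. With 4 libraries such closeness is a description of levels alone.

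The makeup of the islet RNA also differed between genotypes, and in bulk RNA fewer cells of a type and less RNA per cell cannot be told apart. As background for the counts below, edgeR called 230 of 10956 genes tested higher and 176 (1.61%) lower. The sum of 10 pan-endocrine markers was 2170 and 2449 CPM for Mettl3/14nKO, against 2450 and 2536 CPM for wild-type, and 1 of the 10, the synaptic vesicle gene Syp, fell with edgeR (-0.61, adjusted p = 0.0423). Beta-cell markers, mostly insulin, came to 38440 and 47750 CPM for Mettl3/14nKO, against 72600 and 76060 CPM for wild-type. Of these 10 markers 3 fell with edgeR (Ins1, Ins2 and Iapp) and 1 rose (Ucn3), and their median log2 fold change was 0.00. Alpha-cell markers, of which 0 of 8 passed with edgeR, came to 11440 and 14760 CPM for Mettl3/14nKO, against 10820 and 9034 CPM for wild-type. Most of each sum was Gcg, with 9951 and 12990 CPM for Mettl3/14nKO, against 9574 and 7702 CPM for wild-type. For 7 delta-, gamma- and epsilon-cell markers the sums were 2646 and 3226 CPM in Mettl3/14nKO, against 3338 and 5172 CPM in wild-type libraries. Of the 7, 2 fell with edgeR (Ppy and Pyy) and 0 rose, and the delta-cell hormone gene Sst had a log2 fold change of 0.04. Mesenchymal markers, of which 9 of 12 rose with edgeR, came to 12420 and 8657 CPM for Mettl3/14nKO, against 5782 and 4194 CPM for wild-type. Leukocyte markers, of which 7 of 13 rose, came to 333 and 634 CPM for Mettl3/14nKO, against 54.2 and 116 CPM for wild-type. Endothelial markers, of which 7 of 12 fell, came to 499.8 and 308 CPM for Mettl3/14nKO, against 1324 and 1122 CPM for wild-type. Duct markers, of which 3 rose and 4 fell among 9 tested, came to 932 and 1004 CPM for Mettl3/14nKO, against 1360 and 1424 CPM for wild-type. DESeq2 called fewer, with 3 mesenchymal, 3 leukocyte, 6 endothelial and 6 duct markers (background 1.48% in either direction). On these lists limma called 0. Acinar markers came to 36.2 and 73.9 CPM for Mettl3/14nKO, against 70.1 and 74.2 CPM for wild-type. Erythroid markers came to 44.4 and 69.9 CPM for Mettl3/14nKO, against 114 and 219 CPM for wild-type. Enterochromaffin-like markers, a list that holds Chgb itself, came to 2147 and 2692 CPM for Mettl3/14nKO, against 3252 and 2903 CPM for wild-type. Nearly all of each sum was Chgb, with 2081 and 2586 CPM for Mettl3/14nKO, against 3151 and 2804 CPM for wild-type. Of that list, Lmx1a had no fragment in any library and Tph1, Tph2 and Tac1 none in some. The part of these shifts in the granin values was not tested.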

How the data were processed

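RNA of newborn mouse islets was sequenced in 4 libraries, grouped and numbered by the sample labels. Per the submitters' processing notes, the tools were HISAT2 2.0.4, Cufflinks, Cuffdiff and cutadapt 1.9.3, with build mm10; no source used here gives the annotation release or strand setting. The deposited table gives FPKM per gene, per the file headers, and estimated counts deposited by the authors that are not whole. Per library, 92.3 to 93.3% of the nonzero estimates were whole multiples of a single step (tolerance 0.01), so they were divided by that step (0.968 and 1.33 for Mettl3/14nKO, 0.982 and 0.835 for wild-type) and rounded to fragments. Genes that share a symbol were summed.

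The test was edgeR 4.0.16 (quasi-likelihood, TMM factors, filterByExpr, R 4.3.3) on fragments, Benjamini-Hochberg over all genes at 0.05, two-sided. DESeq2 1.42.0 on fragments and limma 3.58.1 on log2(FPKM + 1), restricted to genes averaging 1 FPKM or more, were alternatives, beside other scalings and filters, a replicate block and each library left out. The labels do not say that equal replicate numbers share a litter or day. Scripts were tested on simulated fragments. The members and lists were chosen with earlier results of these data known. The rule for named genes took the members, the 8 hormones and the genes closest in pattern. From each granule, processing, sorting and regulator list it took all called genes and up to 4 by smallest edgeR p. Start-site sequences are RefSeq's (GRCm38.p6). Gene features are from GENCODE M21. Vgf had no start-site sequence in that table. Intervals are exact Poisson and cover counting error only. Some results of the neuron and glia marker list are not reported here.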

Additional observations from a re-analysis of the deposited data

How the results depend on the processing

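Over 15 alternatives Chga, Chgb and Vgf had negative log2 fold changes throughout, and their side of the threshold changed in 2 alternatives each. In the edgeR fit that kept genes of any count, Chga (-0.38), Chgb (-0.37) and Vgf (-0.75) passed, so 3 granins were called lower against 0 in the planned fit, 4 genes of the granule lists were lower against 2, and over all genes 469 were higher and 388 lower against 230 and 176. The effects hardly moved, while the SE was 0.11 against 0.15 for Chga, 0.11 against 0.14 for Chgb and 0.22 against 0.20 for Vgf. Over all genes the smallest edgeR adjusted p went from 9.87e-06 to 2.23e-55, so these passes depend on the variance fit. With at least 10 fragments in every library Vgf passed (-0.74), making 1 granin lower, beside 214 genes higher and 159 lower of 8990 tested. Scg2, at 0.03, had -0.25 in each of the 3 limma fits on FPKM, whose scale also shifts the median of all genes. Those limma fits called 0 genes higher and 0 lower, also in the granule lists, with 1477 genes at an unadjusted p under 0.05 for log2(FPKM + 1). DESeq2 called 104 higher and 58 lower, and 1 granule list gene lower. Rounding the deposited estimated counts as they stand left 1 granule list gene lower.

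With 1 library left out, where a lone sample of a group is assumed to vary like the other group, log2 fold changes ranged from -0.54 to -0.20 for Chga, -0.54 to -0.19 for Chgb, -0.19 to 0.22 for Scg2, -0.30 to 0.10 for Scg3 and -0.83 to -0.64 for Vgf. Granins called lower numbered 0 to 2, both calls being without Mettl3/14nKO replicate 2. Granule list genes called lower numbered 0 to 5, all genes higher 44 to 390 and lower 31 to 285, with the fewest without wild-type replicate 2. Summed granins had a log2 ratio of Mettl3/14nKO over wild-type of -0.53 in FPKM, -0.25 in CPM and -0.30 with hormone genes left out of the total, and granins over insulin 0.67 in FPKM and 0.56 in CPM. A fit with the replicate number as a block called 215 higher and 166 lower genes and gave Chga -0.37, Chgb -0.36, Scg2 0.01, Scg3 -0.10 and Vgf -0.74, with no granin passing. The planned fit did not treat the numbers as pairs because the labels do not pair them. Deviations of same-numbered libraries correlated at 0.026 across genes, which with 2 libraries a group cannot show whether any share a litter or day. Where values moved, the cause was not tested. Depth limits Vgf most, at 36 to 130 fragments.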
